A study of Mus musculus with 2 samples.

Results

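Genes of sterol and fatty acid synthesis were examined in tumour-bearing mouse lung, as a set of 34 genes given by name. It held 18 enzymes of the route from acetyl-CoA to cholesterol, 10 enzymes that make, elongate or desaturate fatty acids, and 6 genes of control and transport, 5 of them around the SREBP transcription factors together with the sterol carrier gene Stard4. All probe sets annotated to only 1 gene and to a listed symbol, or to its current name, were taken, and Sc4mol was found under its current symbol Msmo1. This gave 76 probe sets for 33 of the 34 genes, out of 18193 genes with such a probe set. Acat2, the cytosolic thiolase at the head of the route, is not analysed here.

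Whole lungs came from C57BL/6 mice that were 6 to 8 weeks old when they received 500000 Lewis lung carcinoma (LLC) cells in 200 µL through a tail vein, and the lungs were taken at day 19. LLC is a carcinoma line of C57BL origin that seeds tumours in the lung. In the control group the cells carried the vector, and in the other group they overexpressed TDAG8, a proton-sensing G protein-coupled receptor encoded by Gpr65. Total RNA of 10 mice was pooled per group and read on 1 Affymetrix array, so there were 2 arrays, no spread between mice and no test of any difference. The sources used here do not say whether the transfected cells were 1 clone or which promoter drove TDAG8. Every mouse carried LLC cells and no tumour-free lung was analysed here, so each value compares these 2 pooled RNAs of tumour-bearing lung.

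Cells obtain cholesterol and fatty acids by uptake or by making both from acetyl-CoA. The SREBP factors are held in the endoplasmic reticulum with Scap and the Insig proteins while sterols are plentiful, and when sterols run low they are carried to the Golgi, cleaved, and released to the nucleus. The product of Srebf2 acts mainly on sterol enzyme genes and the shorter product of Srebf1 mainly on fatty acid genes. In lung, alveolar type 2 cells make fatty acids for surfactant phospholipid, and dividing cells need both lipids for new membranes.

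Values are linear intensities that the authors had scaled to the same trimmed mean on each array. Gpr65 itself had an intensity of 32.3 in the control and 73.9 in the TDAG8 array, from 1 probe set near the floor for dim signals, and whether that probe set reads the transfected sequence is unknown. That floor was the median of each array, 26.3 in the control and 24.3 in the TDAG8 array. Genes or probe sets that exceeded it on both arrays are called measured below. Ratios are TDAG8 over control on the log2 scale, centred on the median of the 11030 measured genes. Markers of lung were present as labelled, with 9 of 9 type 2, 6 of 6 type 1 and 5 of 5 club cell markers measured among those with a probe set.

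Sterol enzymes lay slightly above and most fatty acid genes slightly below the middle of all genes. Of 17 measured sterol enzymes 14 had ratios above 0, with a median log2 ratio of 0.20. Of 10 fatty acid genes 7 had ratios below 0, with a median of -0.13, and the difference of the medians was 0.34 on the log2 scale. Under the alternatives the sterol count was 13 of 17 after quantile normalization and 11 of 13 with a 65th percentile floor. It was 10 of 15 when probe sets ending in _s_at, _x_at or _a_at, called suffixed below, were dropped, and 14 of 17 otherwise. The fatty acid count was 8 of 10 below 0 under 4 of the 8 alternatives and 7 of 10 under the others. The 6 control and transport genes had a median of 0.07, and the median of all genes is 0 by the centring. All 33 genes were measured in this sense, so none of their ratios is a bound. Only 4 of them were at least 1.5-fold higher, the sterol genes Cyp51, Fdps and Lss and the elongase gene Elovl6. That is 12.1% of the 33 against 13.8% of all 11030 genes, near the background. At least 1.5-fold lower were 0 members, against 12.2% of all genes. With 1 array per group neither count has an error or a p-value. At least 2-fold higher was 1 member, Elovl6, against 4.96% of all genes, and 0 members were at least 2-fold lower, against 1.08%.

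**Figure D1:**
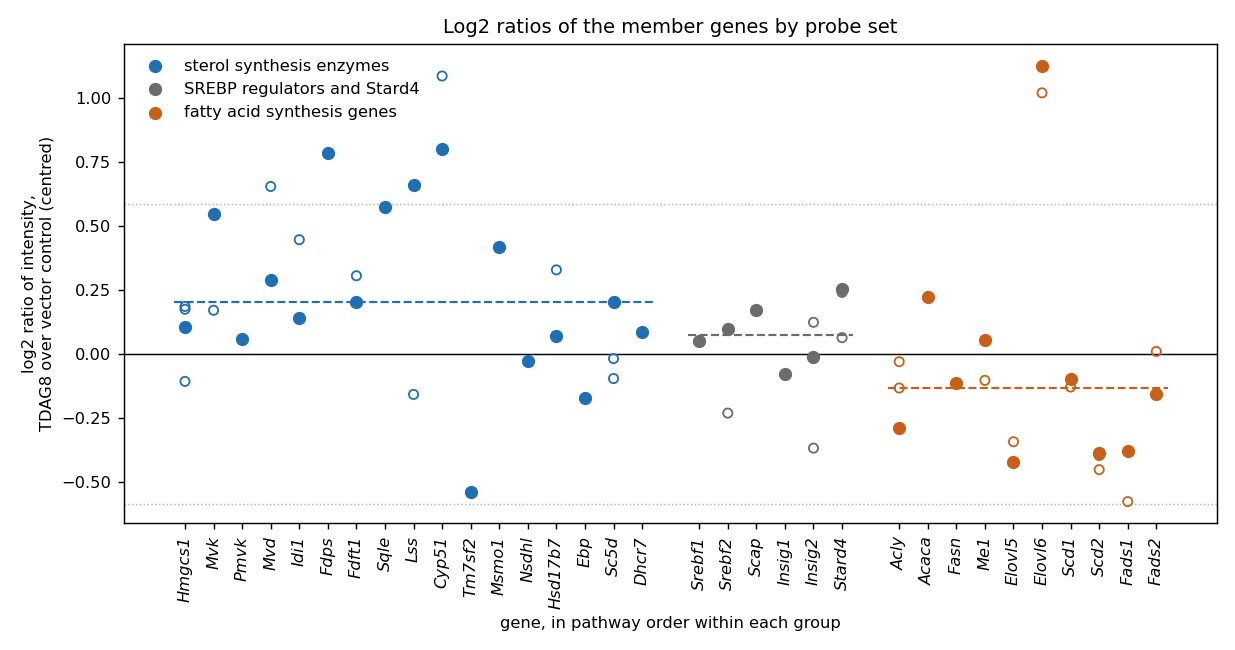
Each point is 1 measured probe set, placed at its gene in pathway order, with the centred log2 ratio of TDAG8 over vector control on the vertical axis. Filled points are the probe set that stands for the gene, open points the others, dashed lines the group medians (0.20, 0.07 and -0.13), and dotted lines 1.5-fold. The sterol enzymes spread from -0.54 to 0.80, and Elovl6 at 1.13 stands above the other fatty acid genes.

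The only measure of error in these data is how far probe sets of 1 gene differ from each other on the same pair of arrays. Over 4769 genes with several measured probe sets, the pooled SD of the log2 ratio within a gene was 0.27. Over the 20 members with several it was 0.19, and in 7 of the 20 the probe sets disagreed in sign. Of the 33 members 20 had a ratio no larger in size than the SD over all genes, and 16 one no larger than the SD over members. These SDs hold no spread between mice or between arrays. Taken by probe set, 22 of 29 measured sterol probe sets had ratios above 0 and 15 of 20 measured fatty acid probe sets had ratios below 0. Another 15 of the 76 probe sets lay below the floor on both arrays and 1, of Hsd17b7, passed it in the TDAG8 array only.

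Promoter sequence is a feature of the members that their choice did not use. RefSeq start sites of assembly GRCm38.p6 were available for 27 of the 34 genes, as 36 windows from 250 bases before to 50 bases after the start. They were searched on both strands for the sterol regulatory element TCACNCCAC, the CCAAT box bound by NF-Y, and the GC box GGGCGG bound by Sp1, factors that act together with SREBP on sterol genes. CCAAT was present for 14 of the 15 sterol genes with a window and the GC box also for 14 of 15. Fdps, Fdft1, Sqle, Stard4, Scd1, Scd2 and Fads1 had no window, and the 8 fatty acid windows came from 7 genes. Counted by window, CCAAT lay in 77.8% of 18 sterol windows, in 50% of 8 fatty acid windows and in 37.4% of all 32851 windows. The GC box lay in 83.3%, 37.5% and 35.7% of these, and in 62.3% of the windows of measured genes. The sterol regulatory element lay in 1.24% of all windows and in 1 member window, that of Hmgcs1, from 137 to 129 bases before the start. No match of 1 motif overlapped a match of another in the member windows.

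The last 150 bases before the start are shown for 5 genes, 5′ to 3′ on the strand of the gene, because they set the highest and lowest sterol enzymes and both elongases side by side with the gene that holds the sterol element. Capitals mark the 3 motifs, with CCAAT read as ATTGG and GGGCGG as CCGCCC where they lie on the other strand.
Hmgcs1, chr13:119690201-119690350, plus strand: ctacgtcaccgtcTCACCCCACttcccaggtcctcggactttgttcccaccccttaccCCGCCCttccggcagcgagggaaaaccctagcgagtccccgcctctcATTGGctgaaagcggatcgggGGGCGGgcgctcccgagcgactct
Cyp51, chr5:4104698-4104847, minus strand: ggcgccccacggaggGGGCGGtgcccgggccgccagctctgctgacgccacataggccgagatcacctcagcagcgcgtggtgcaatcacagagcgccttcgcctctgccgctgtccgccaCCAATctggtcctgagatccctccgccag
Tm7sf2, chr19:6067851-6068000, minus strand: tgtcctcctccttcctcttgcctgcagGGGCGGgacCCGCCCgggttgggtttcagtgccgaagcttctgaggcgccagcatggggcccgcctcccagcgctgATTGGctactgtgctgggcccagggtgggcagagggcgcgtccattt
Elovl6, chr3:129532236-129532385, plus strand: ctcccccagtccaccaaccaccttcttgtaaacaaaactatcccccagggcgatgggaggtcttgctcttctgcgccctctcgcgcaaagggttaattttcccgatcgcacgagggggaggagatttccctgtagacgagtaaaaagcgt
Elovl5, chr9:77917215-77917364, plus strand: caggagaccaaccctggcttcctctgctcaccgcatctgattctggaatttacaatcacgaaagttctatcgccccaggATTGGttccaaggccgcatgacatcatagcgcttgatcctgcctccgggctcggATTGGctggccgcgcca

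Cyp51 and Tm7sf2, at opposite ends of the sterol enzymes by ratio, each held 1 CCAAT box in that stretch, with 1 and 2 GC boxes. Hmgcs1 held the sterol element, 1 CCAAT box and 2 GC boxes, and its log2 ratio was 0.11. Elovl6, the member with the highest ratio, had none of the 3 motifs in its whole window, and Elovl5 had 2 CCAAT boxes in the stretch shown. A match in these letters is a description, not a measured binding site.

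The first steps of the sterol route, up to the isoprenoid units, had log2 ratios from 0.06 for Pmvk to 0.55 for Mvk. Hmgcs1, which builds the precursor of mevalonate, had intensities of 728 in the control and 753 in the TDAG8 array. Its 4 measured probe sets gave log2 ratios from -0.11 to 0.19, on both sides of 0. Mvk, the kinase acting on mevalonate, went from 42.6 to 59.8, a log2 ratio of 0.55, and its second probe set gave 0.17. Both values of Mvk lie not far above the floor. Pmvk, the next kinase, read 143.2 on the control and 143.3 on the TDAG8 array. Mvd, the decarboxylase that follows, went from 49.7 to 58.4 and had a ratio of 0.29, with 0.66 from its other probe set. Idi1, which isomerises the resulting isoprenoid unit, was at 0.14 and 0.45 by its probe sets. Of these 5 genes all lay above 0 by the probe set that stands for them. None reached 1.5-fold by it, while the other Mvd probe set did, from a control intensity of 27.5, just above the floor of 26.3. Under the alternatives Pmvk was at -0.011 after quantile normalization and Hmgcs1 at -0.085 when suffixed probe sets were dropped. Mvk was at 0.642, above 1.5-fold, after loess centring.

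The middle of the route, from farnesyl diphosphate to lanosterol and its demethylation, held the highest ratios. Fdps, which makes farnesyl diphosphate for sterols and for protein prenylation, went from 319 to 528. Its log2 ratio was 0.79, or 1.72-fold, and 8.39% of all measured genes had a higher one. Its only other probe set was below the floor on both arrays. Fdft1, the squalene synthase that commits farnesyl units to sterols, was at 0.20 with 229 in the control and 253 in the TDAG8 array. Sqle, the oxygenase that acts on squalene and a control point of the route, went from 238 to 341, a ratio of 0.57 and 1.49-fold from 1 probe set. Lss, which closes the ring to lanosterol, went from 56.2 to 85.3, 1.58-fold. A second Lss probe set of much the same brightness went the other way, from 60.6 to 52.2, a ratio of -0.16. The call for Lss thus rests on which probe set stands for it. Cyp51, the lanosterol demethylase, went from 116 to 194, 1.74-fold at a log2 ratio of 0.80. A dimmer Cyp51 probe set went from 39.6 to 80.8, a ratio of 1.09, so both readings of this gene were above 1.5-fold.

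The later steps, which trim lanosterol to cholesterol, were mostly nearer to 0, apart from Msmo1 and Tm7sf2. Msmo1, which oxidises methyl groups of the sterol, went from 240.3 to 309, a ratio of 0.42. Tm7sf2, a sterol reductase, was the lowest sterol enzyme, going from 68.0 to 44.9 with a ratio of -0.54, or 1.46-fold lower. It had 1 probe set, and 13.9% of all genes had a lower ratio. Lbr, a nuclear envelope protein with the same reductase activity and no member of the set, went from 699 to 916, a ratio of 0.45. These 2 genes of the same reaction therefore lay on opposite sides of 0, each by 1 probe set. Nsdhl, a dehydrogenase of the demethylation steps, was at -0.03 and the sterol isomerase gene Ebp at -0.17, going from 370.1 to 316. Sc5d, a sterol desaturase, was at 0.21 by 1 probe set, while its other probe sets went down to -0.10. Hsd17b7, a reductase of the demethylation steps, was at 0.07 and 0.33 by its probe sets, and Dhcr7, the last reductase, was at 0.09, with 69.1 and 70.5.

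Genes of SREBP control lay close together by the probe sets that stand for them. Srebf1 read 287 in the control and 286 in the TDAG8 array, a ratio of 0.05 from 1 probe set. Srebf2 was at 0.10 by 1 probe set, from 219 to 225, and at -0.23 by the other, from 204 to 167. Scap, the escort of SREBP, was at 0.17. Insig1, the retention protein whose gene is itself an SREBP target, went from 187 to 170.1, a ratio of -0.08. Insig2, its relative, was at -0.01, with other probe sets at 0.12 and -0.37. Stard4, a cytosolic sterol carrier and SREBP target, had the highest ratio of this group at 0.25, and its 3 probe sets lay between 0.06 and 0.25. By those probe sets the range from -0.08 to 0.25 was narrower than the middle of all genes, whose quartiles were -0.33 and 0.34. Over all measured probe sets of the 6 genes it ran from -0.37 to 0.25, past the lower quartile. RNA levels of these genes do not measure cleavage of SREBP.

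**Figure D2:**
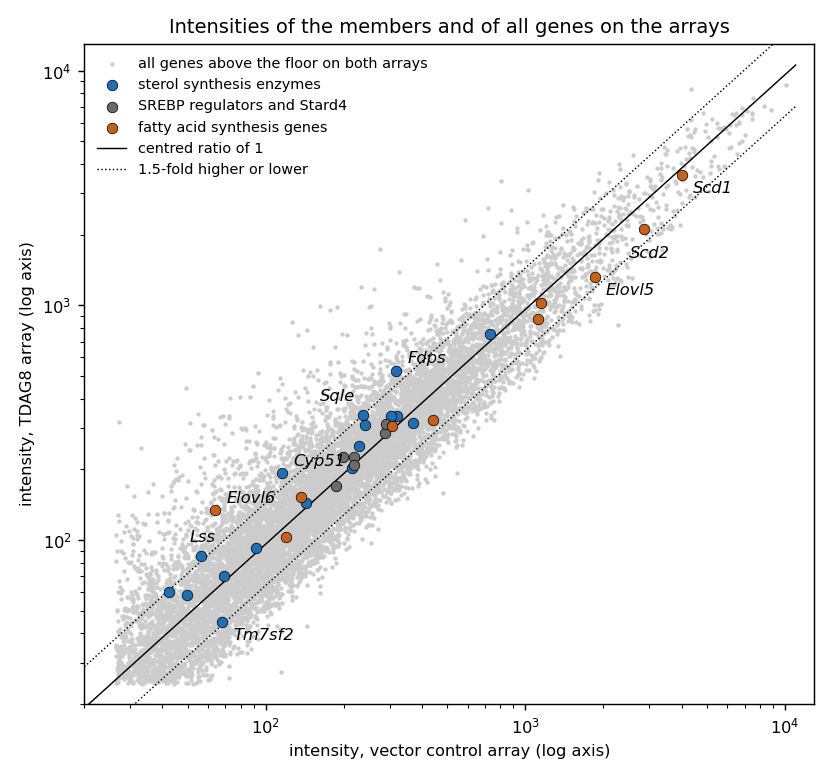
Intensity in the TDAG8 array against intensity in the vector control array on log axes, for all 11030 measured genes (grey) and for the members (coloured by group). The solid line is a centred ratio of 1 and the dotted lines 1.5-fold. Elovl6, Cyp51, Fdps and Lss lie above the upper dotted line, and no member lies below the lower one.

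The core enzymes that build palmitate were close to the middle of all genes. Acly, which splits citrate into cytosolic acetyl-CoA, went from 1118 to 879, a log2 ratio of -0.29, and 2 further probe sets gave -0.13 and -0.03. Acaca, which makes malonyl-CoA, went from 137 to 153, a ratio of 0.22. Fasn, the synthase that joins these units, went from 1152 to 1024, a ratio of -0.11. Me1, the malic enzyme that supplies NADPH, read 306.4 and 305.9, with probe sets at 0.06 and -0.10. Among these 4 genes Acaca and Me1 were above 0 and the other two below, with Me1 turning below 0 under 4 of 8 alternatives, by amounts of the size seen between probe sets of 1 gene.

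The largest differences among the fatty acid genes were in elongases and desaturases, although Scd1 and Fads2 were nearer to 0 than Acly and Acaca. Elovl6, which lengthens palmitate to stearate, went from 64.0 to 134, 2.18-fold at a log2 ratio of 1.13, and a second probe set went from 41.5 to 80.9, a ratio of 1.02. Both were above 2-fold after centring, and 3.77% of all genes had a ratio higher than 1.13. By its uncentred intensities the second probe set was just under 2-fold. Both control values lie not far above the floor. The remaining Elovl6 probe set was below the floor on both arrays, at 8.5 and 18.2. Elovl5, which lengthens polyunsaturated chains, went from 1850.4 to 1326, a ratio of -0.42, with -0.34 from its other probe set. The elongases were thus on opposite sides of 0, by each of their measured probe sets. With an offset in place of the floor Elovl6 had a ratio of 0.88, and with the mean over its probe sets 0.71, below 2-fold in both cases.

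Scd1 and Scd2 encode desaturases that turn stearate and palmitate into monounsaturated fatty acids. Scd1 went from 4022 to 3607, a ratio of -0.10, and its second probe set gave -0.13. Scd2 went from 2869.7 to 2109.8, a ratio of -0.39, and its 3 probe sets lay between -0.45 and -0.39. In the RefSeq gene order Scd1 and Scd2 lie on chromosome 19 with 1 protein-coding gene between them. Fads1 and Fads2, desaturases of the polyunsaturated route, are direct neighbours on the same chromosome. Fads1 went from 441 to 325, a ratio of -0.38, with -0.58 from a dimmer probe set. Fads2 went from 120 to 103, a ratio of -0.16, and a second probe set was at 0.01. The polyunsaturated route, Elovl5 with Fads1 and Fads2, was below 0 in all 3 genes by the probe set that stands for each.

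The pathways overlapped although their medians differed. Of the 17 sterol enzymes 15 lay above the fatty acid median, and 2 of the 10 fatty acid genes, Elovl6 and Acaca, lay above the sterol median. The fatty acid range, widened by Elovl6, took in 16 of the 17 sterol enzymes. Without Elovl6 the other 9 fatty acid genes reached 0.22 at most, and 7 sterol enzymes lay above that while 9 lay within the range. The fatty acid median without Elovl6 was -0.16 and the difference of medians 0.36. The SD over genes was 0.35 for the sterol enzymes and 0.46 for the fatty acid genes with Elovl6 among them. Each was larger than the difference of medians with Elovl6, 0.34. No fatty acid SD without Elovl6 was computed. No test was possible, because genes of a pathway share the same 2 RNA pools and are no replicates.

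**Figure D3:**
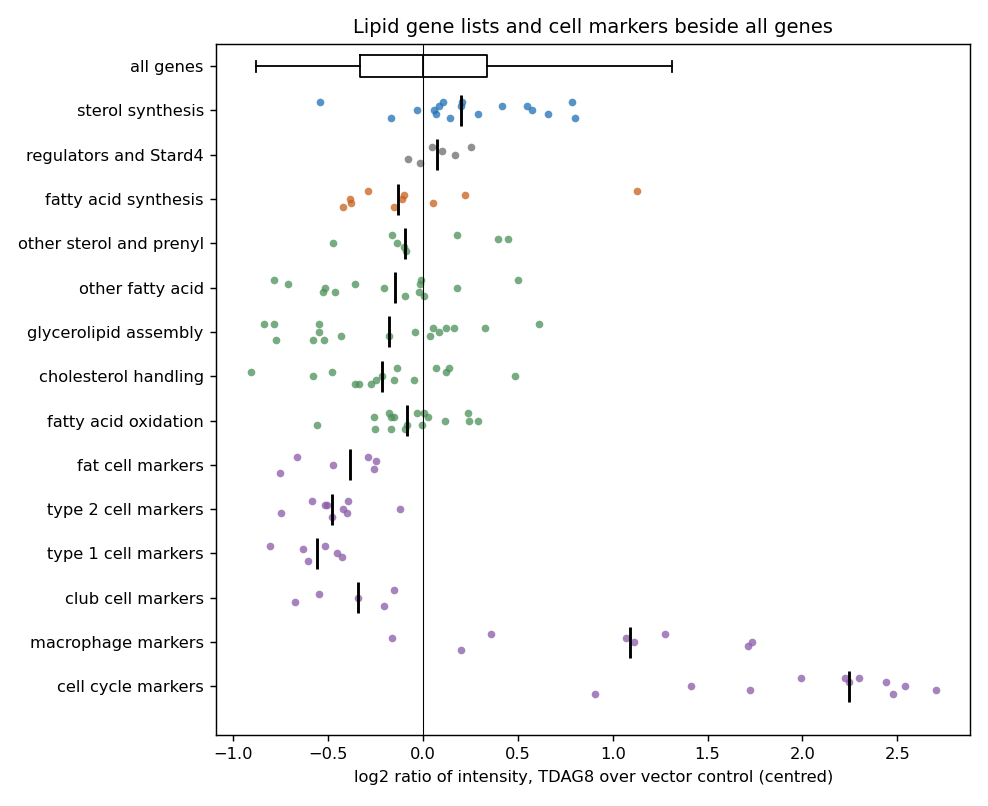
Centred log2 ratios of each gene (points) and the median (vertical bar) for the members, other lipid lists and cell markers, over measured genes. The box for all genes spans the quartiles, -0.33 to 0.34, and its whiskers the central 95% of genes, -0.88 to 1.31. Sterol synthesis is the only one of the lipid lists other than the regulators with a median above 0, and the marker medians lie between -0.56 for type 1 cells and 2.24 for cell cycle genes.

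Other lipid genes, in lists beside the members, had medians below 0. Of 8 measured genes of the wider sterol and prenyl route 5 lay below 0, with a median of -0.10. Pgrmc1, a haem-binding partner of sterol cytochromes, was at -0.48, and Mbtps2, a protease that cleaves SREBP, at 0.39. Of 14 further fatty acid genes 11 lay below 0, with a median of -0.15, and 2 were at least 1.5-fold lower. These were Acacb, the mitochondrial carboxylase that restrains fatty acid entry, from 48.5 to 27.0, and Acss2, which makes acetyl-CoA from acetate, from 178 to 104. The median of that list was -0.336 when suffixed probe sets were dropped.

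Genes that assemble or move lipids followed the same side. Of 17 genes of glycerolipid assembly 10 lay below 0, with a median of -0.18. The phosphatidate phosphatase genes Lpin2 and Lpin1 went from 879 to 473 and from 389 to 218, and Chpt1, which makes phosphatidylcholine, from 506 to 282. These 3 were at least 1.5-fold lower. Plin2, a coat protein of lipid droplets, was the only one at least 1.5-fold higher, from 723 to 1061. That median was -0.06 when probe sets of a gene were averaged and -0.411 when suffixed probe sets were dropped. Of 15 cholesterol handling genes 11 lay below 0, with a median of -0.22, and 1 was at least 1.5-fold lower, Cyp27a1, a mitochondrial sterol hydroxylase, from 168 to 85.9. Vldlr, a lipoprotein receptor, was at -0.58, Ch25h, which makes an oxysterol, at 0.49, and Npc2, a lysosomal cholesterol carrier, at -0.28. Of 17 fatty acid oxidation genes 11 lay below 0, with a median of -0.08 and none at 1.5-fold, and Pdk4, a kinase that spares glucose, was at -0.56.

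Markers of cell types and of division also differed between the arrays, and their part in the ratios of the members was not tested. In whole lung, fewer cells of a type and less RNA per cell cannot be told apart. All 9 measured type 2 cell markers lay below 0, with a median of -0.48 and a summed intensity of 33065 in the control and 24456 in the TDAG8 array. All 6 type 1 markers lay below 0, with a median of -0.56, sums of 16211 and 10835, and 3 of the 6 at least 1.5-fold lower. All 5 club cell markers lay below 0, with a median of -0.34 and sums of 35584 and 27226. All 6 measured fat cell markers lay below 0, with a median of -0.38 and sums of 1148 and 840 over the 7 with a probe set. Adipoq, the fat cell hormone adiponectin, went from 243 to 147, and Lep was below the floor on both arrays. Fabp4 in that list is also made by lung capillaries and macrophages. Of 8 measured macrophage markers 7 lay above 0, with a median of 1.09 and sums of 2483 and 3460 over 9 markers. All 11 measured cell cycle markers lay above 0, with a median of 2.24 and sums of 2397 and 7430. No marker with a probe set read 0 on either array. The fatty acid median of -0.13 and the sterol median of 0.20 both lay between those of the type 2 and the cell cycle markers. So did the median of all genes and those of the other lipid lists, so this position is not particular to the members.

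**Figure D4:**
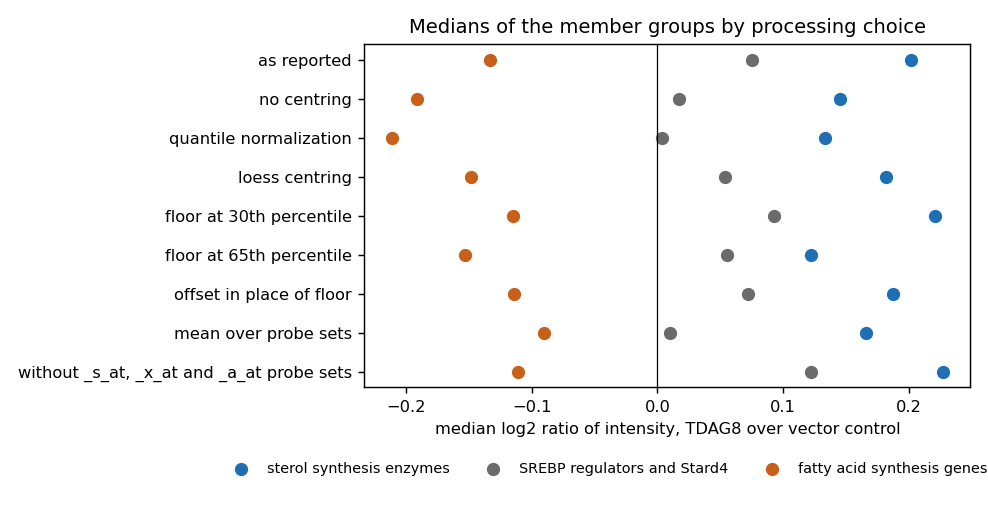
Median log2 ratio of TDAG8 over vector control for the sterol enzymes, the SREBP regulators with Stard4, and the fatty acid genes, as reported (top) and under 8 other ways of processing the same arrays. The sterol median lay between 0.122 and 0.227 and the fatty acid median between -0.211 and -0.09 under the alternatives, so their order was kept in each.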

How the data were processed

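The intensity values deposited by the authors, 1 per probe set, are linear, with a mean of 100 on each array after trimming 2% at each end. The software behind them is not stated in the labels used here. Per the labels' protocols, biotin-labelled cRNA was made from 2 µg of pooled total RNA with an oligo(dT) primer. Of 45101 probe sets, 64 controls were set aside, and 34945 had 1 gene symbol in the platform annotation (34741 matched to RefSeq, GRCm38.p6). The brightest probe set by mean log2 intensity stood for a gene. Values below the 50th percentile of an array were raised to it. The column medians differed by -0.11 (log2), over the limit of 0.1, so ratios were centred, a shift of -0.06. Counts use 1.5-fold and 2-fold. Every member is named. From each other list the 3 measured genes with the largest ratios and the brightest could be named. Plin2 and Lep were chosen after their values were seen. Members and lists were chosen with earlier results of these data known. The procedure was tested on simulated data. The changes built into them were larger than any member ratio, in genes brighter in the control than Elovl6 or Lss. That test therefore does not cover ratios of the size reported. Python 3.11.15, pandas 2.3.3 and statsmodels 0.14.6 (loess span 0.3) were used. There were 8 alternatives, and 0 columns were left unmapped.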

Additional observations from a re-analysis of the deposited data

How the results depend on the processing

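The medians of the sterol enzymes and of the fatty acid genes and their difference were recomputed under 8 alternatives, and each kept its sign and moved by at most 0.1 on the log2 scale. The difference lay between 0.256 and 0.343. The count of fatty acid genes at least 2-fold higher, 1 as reported, was 0 with an offset in place of the floor and 0 with the mean over probe sets, since Elovl6 then had ratios of 0.88 and 0.715. The count of sterol enzymes at least 1.5-fold lower, 0 as reported, was 1 without centring, where Tm7sf2 was at -0.599. The count at least 1.5-fold higher, 3 as reported, lay between 2 and 4. Sqle, at 0.574 as reported, passed 1.5-fold under 3 alternatives, and Lss fell short of it under 3. The log2 ratio of Lss turned to -0.135 when suffixed probe sets were dropped, because the other probe set then stood for it. Fdps was at 0.382 with the mean over probe sets, because a probe set below the floor on both arrays entered the mean. Of 33 members 26 kept their sign under every alternative that gave a value, and the 7 others were Lss, Hmgcs1, Insig2, Me1, Pmvk, Srebf1 and Srebf2. With a 65th percentile floor 13 of 17 sterol enzymes stayed above it on both arrays. When suffixed probe sets were dropped 10 of 15 sterol enzymes lay above 0. No replicate could be left out, and no paired analysis was possible because each group had 1 array. Ratios near the floor, such as those of Mvk, Mvd, Lss and Tm7sf2, have little signal over background. The same limit holds for Elovl6, whose control intensity of 64.0 was below the 68.0 of Tm7sf2.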
